A study of Mus musculus with 2 samples.

Results

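The antioxidant response genes are a group of genes whose products import cystine, build and recycle glutathione, reduce thioredoxin and peroxiredoxins, and detoxify quinones. To describe them in the injured lung, 10 genes were followed across the leukocyte classes of BLM-injured and naive lungs: Nfe2l2, Sqstm1, Slc7a11, Gclc, Gclm, Gsr, Txnrd1, Srxn1, Prdx1 and Nqo1. They were chosen by name, with no measured value in the rule, and are 10 of the 24785 genes listed in the deposited tables. Each of the 10 had its own column in both tables. All are annotated as protein coding.

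NRF2, the protein of Nfe2l2, is a transcription factor that KEAP1 holds in the cytoplasm and marks for degradation. When oxidants or electrophiles modify KEAP1, NRF2 accumulates, enters the nucleus, pairs with a small MAF protein and binds the antioxidant response element (ARE) of its target genes. The messenger RNA of Nfe2l2 therefore does not report the activity of the protein. Slc7a11 is also a target of ATF4, the factor of the amino acid and integrated stress responses, which binds C/EBP-ATF response elements (CARE). Macrophages and neutrophils make oxidants themselves through the NADPH oxidase, and alveolar macrophages live in oxygen-rich air.

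Living CD45+ cells (leukocytes) were sorted from lungs of wild-type C57BL/6N mice, and their transcripts were counted cell by cell on BD Rhapsody, a microwell platform. The BLM library was made from lungs taken on day 15 after bleomycin, an injurious agent given into the trachea (50 micrograms, in mice of 10 to 16 weeks), and the naive library from lungs with no treatment. Each library was a pool of 3 mice with equal cell numbers, with no map from cell to mouse, so there was 1 library a group and the group, the pool and the library preparation cannot be told apart. No test between groups was possible. Values below are unique molecular identifiers (UMIs), each standing for a captured transcript, summed over the cells of a class and library and scaled to 1000000 UMIs of that sum (counts per 1000000, CPM). Intervals are exact 95% intervals (Poisson for a CPM, the conditional interval of a ratio for a log2 ratio of BLM over naive), and they cover counting error only, not the spread between mice.

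Sequences of the start regions are shown because the members differ in which of the ARE and CARE letters lie in the 250 bases before the start. RefSeq (GRCm38.p6) promoters, 10 in number, were matched for 8 of the 10 members, all but Gclc and Gsr. In the 250 bases before each annotated start, both strands were searched for the ARE core TGACNNNGC and for the CARE letters TGATGNAAN. The ARE core was found for 4 of these 8 members, Nfe2l2, Gclm, Prdx1 and Txnrd1. Over all genes it was found for 3112 of 27025, and in 10.2% of all 32851 windows of that length. The CARE letters were found for 1 member, Slc7a11, for 1052 of the 27025 genes and in 3.44% of all windows. Each sequence below is on the strand of its gene, 5′ to 3′, with the matched letters in capitals, and the Slc7a11 window holds 2 matches, facing each other, that begin 66 and 48 bases before the start.
Slc7a11 (chr3:50443628-50443704, minus strand): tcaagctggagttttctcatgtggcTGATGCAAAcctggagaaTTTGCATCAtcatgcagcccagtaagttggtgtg
Prdx1 (chr4:116685441-116685499, plus strand): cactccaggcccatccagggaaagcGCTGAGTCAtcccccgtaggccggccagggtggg
Gclm (chr3:122245398-122245456, plus strand): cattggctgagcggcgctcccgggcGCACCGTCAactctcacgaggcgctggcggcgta
Txnrd1 (chr10:82859089-82859147, plus strand): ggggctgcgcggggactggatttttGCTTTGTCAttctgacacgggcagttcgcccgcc
Nfe2l2 (chr2:75704870-75704913, minus strand): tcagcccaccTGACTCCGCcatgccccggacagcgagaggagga
The windows of Slc7a11, Prdx1, Gclm and Nfe2l2 lie upstream of their genes, and that of Txnrd1 lies inside the gene (chr10:82833951-82897712), before one of its alternative starts. These are matches of letters only, and their relation to the levels below was not tested. The same search found neither set of letters in the windows of Srxn1, Sqstm1 and Nqo1. Bases further from the starts were not searched, so a gene without a match here may hold the letters elsewhere.

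The tables held 4714 BLM barcodes with 22490782 UMIs and 4062 naive barcodes with 18019004 UMIs. After filtering, 4391 BLM and 3808 naive cells were kept, with a median of 2380 and 2700.5 UMIs, and 22 barcode indices occurred in both libraries. The kept cells fell into 18 clusters, named from marker genes, and 11 classes had at least 50 cells in both libraries. All class names mean cells like that class. The naive alveolar macrophages carried the resident markers Fabp1 (388 CPM), Krt79 (492 CPM) and Siglecf (339 CPM), whereas the BLM cells of the class held them at 3.73, 11.7 and 82.2 CPM. Ear1 (58.2 against 696 CPM) and Cidec (13.2 against 406 CPM) were also past 2-fold lower in BLM. The other markers of the class differed less: Ear2 (1170 against 2155 CPM), Plet1 (1827 against 2590), Mrc1 (736 against 1147) and Marco (220 against 347) were lower. Car4 was higher (838 against 731 CPM). Outside the marker list, the BLM cells kept Chil3 (10187 CPM, against 11348 CPM in the naive cells) and carried Spp1 at 5923 CPM against 240 CPM. Summed C1q macrophage markers were 2925 CPM in the BLM and 573 CPM in the naive alveolar macrophages, and summed classical monocyte markers 4242 and 558 CPM. The alveolar class was paired by the integration of the libraries: without it, all 488 BLM cells of the class lay in a cluster led by Mmp12, Spp1 and Arg1, and 585 of the 586 naive cells in another led by Fabp1, Krt79 and Cidec. Among C1q macrophages, 384 of the 472 BLM cells lay in the Mmp12, Spp1 and Arg1 cluster without integration, against 23 of the 119 naive cells, of which 67 lay in a cluster led by Ccl8, Ccl12 and Cd163. The Mmp12, Spp1 and Arg1 cluster held 927 BLM and 26 naive cells. Of its BLM cells, 488 were of the alveolar and 384 of the C1q class. A C1q value without integration taken from it thus compares mixed cells with few naive ones. The cDC2 cluster scored highest on plasmacytoid markers (2.41) and was named from Cd209a, Mgl2, Ccl17, Tnip3 and Clec10a among its leading genes. The stromal or endothelial cluster, cells that a CD45 sort should remove, also held basophil or mast cell markers, 1346 CPM in the BLM and 5911 CPM in the naive library.

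The 10 members did not share a direction between the libraries. Over the 11 classes and 10 genes, 96 of 110 pairs had the 20 UMIs over both libraries needed to be ranked, and 15 of these differed 2-fold or more, 13 higher and 2 lower in BLM. A summed level in a class cannot tell fewer transcripts per cell from fewer cells that carry them. Slc7a11 accounted for 6 of the 13 and Srxn1 for 3, with Nqo1, Txnrd1, Prdx1 and Gsr at 1 each, and Sqstm1 for both of the lower pairs. Nfe2l2 itself passed 2-fold in none of these 11 classes.

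**Figure D1:**
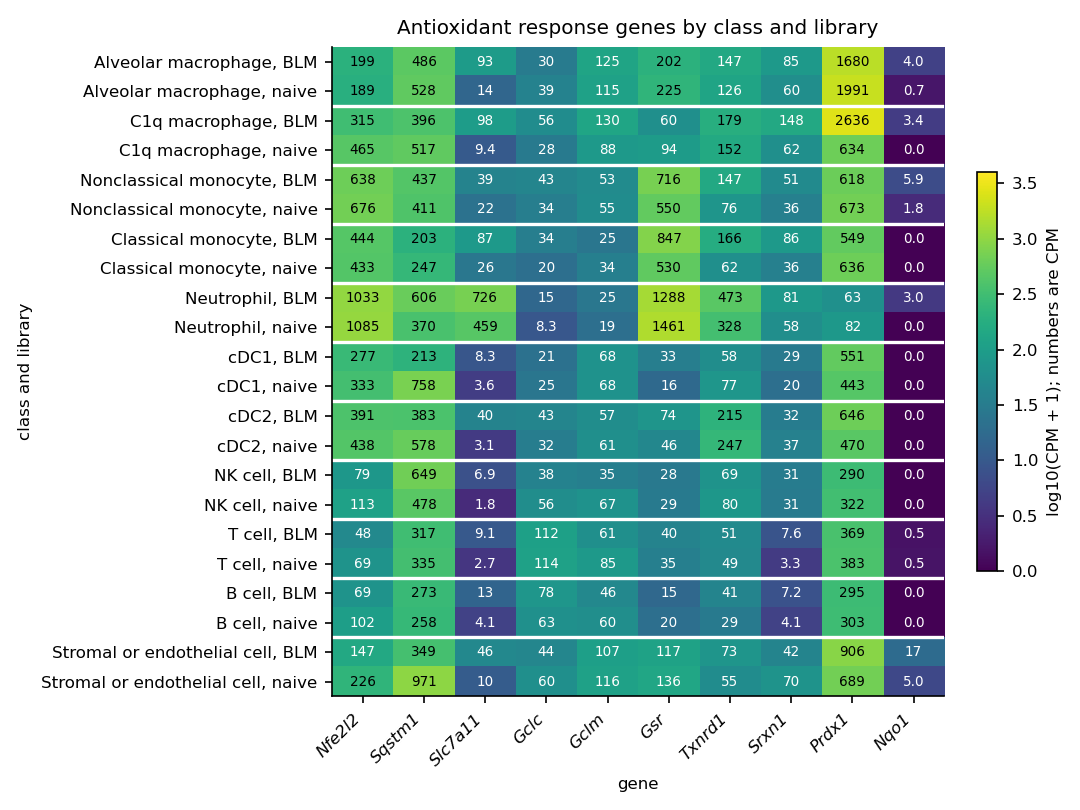
CPM of each member (columns) in each class and library (rows), coloured on a log10(CPM + 1) scale with the CPM printed in each cell. Prdx1 is at 2636 CPM in BLM C1q macrophages against 634 in naive ones, Slc7a11 and Gsr are highest in neutrophils, and Nqo1 is at 17.1 CPM or less throughout.

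Where members passed 2-fold, the share of all ranked genes that did so gives the background. In alveolar macrophages 2 of 10 ranked members were higher and 0 lower, against 6.1% and 9.96% of 10548 ranked genes. In C1q macrophages 3 of 9 were higher and 0 lower, against 7.25% and 10.7%. In classical monocytes 3 of 9 were higher and 0 lower, against 3.91% and 4.85%, and in T cells 2 of 9 and 0, against 2.49% and 3.85%. In cDC2 the count was 1 higher of 9 and 0 lower (background 5.1% and 7.82%), in cDC1 1 higher and 1 lower of 8 (6.73% and 8.96%), and in the stromal or endothelial class 1 higher and 1 lower of 9 (9.84% and 9.19%). No member passed 2-fold in neutrophils (background 3.82% higher and 6.74% lower), nonclassical monocytes (2.72% and 5.2%), NK cells (1.95% and 6.5%) or B cells (1.61% and 4.38%). When neutrophils were split at the higher resolution, 1 of 8 ranked members was higher and 0 lower in each cluster. These were Txnrd1 in the cluster led by Retnlg (background 3.85% and 8.06%) and Srxn1 in that led by Acod1 (6.46% and 5.50%). These are counts over few genes, given as a description.

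Nfe2l2, the NRF2 gene (chr2:75675513-75704641), was highest in myeloid classes and stayed under 2-fold between libraries in the 11 classes. It was highest in neutrophils, at 1033 CPM in the BLM and 1085 CPM in the naive library, followed by nonclassical monocytes at 638 and 676 CPM. Among the 11 classes the lowest levels were in T cells, at 48.1 and 68.9 CPM, and B cells, at 68.9 and 102 CPM. In the BLM library the order ran from neutrophils through nonclassical monocytes to classical monocytes (444 CPM) and cDC2 (391 CPM), and the intervals of the last pair overlapped. Alveolar macrophages held 199 and 189 CPM, a log2 ratio of 0.07 (-0.04 to 0.19), and C1q macrophages 315 and 465 CPM, a log2 ratio of -0.56 (-0.73 to -0.39). The CPM was lower in BLM in 9 of 11 classes, with the interval below 0 in 4 and above 0 in none.

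Sqstm1 encodes p62, an autophagy receptor that carries ubiquitinated cargo and can bind KEAP1, and the gene is itself an NRF2 target. It differed in opposite directions among classes. In cDC1 it stood at 213 CPM in the BLM against 758 CPM in the naive library, 103 against 426 UMIs, a log2 ratio of -1.83 (-2.15 to -1.52). No cell held over 5.83% of those UMIs, and over the alternatives the ratio ran from -1.86 to -1.56. In cDC2 it was 383 against 578 CPM (-0.59), and in stromal or endothelial cells 349 against 971 CPM (-1.47), where the ratio shrank to -0.90 with each cell weighing the same and to -0.37 with cells gated on markers. In neutrophils the direction was the opposite, with 606 against 370 CPM, a log2 ratio of 0.71 (0.51 to 0.92), and in NK cells 649 against 478 CPM gave 0.44 (0.16 to 0.72). Both neutrophil clusters at the higher resolution had it, at 514 against 315 CPM in the cluster led by Retnlg and S100a9 and 700 against 447 CPM in that led by Acod1 and Il1f9. In alveolar macrophages Sqstm1 was 486 against 528 CPM (-0.12, -0.19 to -0.05). In C1q macrophages it was 396 against 517 CPM (-0.39, -0.55 to -0.22), with 0.13 in the Mmp12, Spp1 and Arg1 cluster and -0.08 in the Ccl8, Ccl12 and Cd163 cluster without integration.

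Sqstm1 is also induced by stress, so immediate-early and heat shock genes that respond to tissue dissociation were set beside it, a list of 18 genes chosen after seeing the data. In cDC1, 7 of the 17 ranked genes of that list were 2-fold lower and 0 higher in BLM, beside 8.96% and 6.73% of all ranked genes. The sum of the list had a log2 ratio of -0.85 there. In stromal or endothelial cells 8 of 18 were lower (background 9.19%, sum -1.05). In C1q macrophages 6 of 18 were lower (background 10.7%, sum -0.68) and in neutrophils 2 of 16 (background 6.74%, sum -0.54). In NK cells the sum was higher in BLM, at 0.30, and in alveolar macrophages 2 were higher and 5 lower of 18 (background 6.1% and 9.96%, sum -0.28). Their part in the Sqstm1 values was not tested.

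Slc7a11 encodes xCT, which exchanges intracellular glutamate for extracellular cystine and so supplies the cysteine for glutathione. It was the member whose direction was shared by the most classes, with a higher CPM in the BLM library in 11 of 11 classes and the interval of the log2 ratio above 0 in 8. Only 8 of the 11 classes had the UMIs to be ranked. The others were B cells (13 and 6 UMIs), cDC1 (4 and 2) and NK cells (2 and 1). In alveolar macrophages it stood at 92.9 CPM (85.6 to 101) in the BLM and 14.5 CPM (11.6 to 17.8) in the naive library, from 597 and 88 UMIs, a log2 ratio of 2.68 (2.36 to 3.02). In C1q macrophages it was 98.3 against 9.43 CPM, from 462 and 7 UMIs, a log2 ratio of 3.38 (2.33 to 4.70). A single naive cell carried 42.9% of those 7 UMIs, and a single naive alveolar macrophage 15.9% of the 88. Without integration, the Mmp12, Spp1 and Arg1 cluster had 1049 and 15 UMIs, the latter in 26 naive cells, and a log2 ratio of 0.56 (-0.17 to 1.40), under 2-fold. Classical monocytes held 87.4 against 25.8 CPM (1.76, 0.99 to 2.57) and cDC2 40.4 against 3.07 CPM (3.72, 1.67 to 6.86), the last from 19 and 2 UMIs. In T cells the pair rested on 19 and 5 UMIs, and in stromal or endothelial cells on 19 and 2. The stromal or endothelial ratio ran from -3.17 to 4.21 over the alternatives, so its direction was not stable.

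Neutrophils held Slc7a11 at the highest level of any class in both libraries, 726 CPM (681 to 773) in BLM and 459 CPM (411 to 511) in naive, a log2 ratio of 0.66 (0.48 to 0.85). They carried 41.6% of all Slc7a11 UMIs of the kept BLM cells and 65.1% of those of the naive cells, while alveolar and C1q macrophages carried 25.5% and 19.7% of those of BLM against 17.4% and 1.38% of those of naive cells. Cells with a Slc7a11 UMI made up 49.4% of the BLM and 8.36% of the naive alveolar macrophages, at median depths of 12575 and 9946 UMIs a cell. With every cell thinned to 1000 UMIs, which left out no alveolar macrophage, the shares were 7.91% and 1.01%. In B cells, taken as a class that should have little of the transporter, the thinned shares were 0.849% and 0.384% and the unthinned 1.26% and 0.838%, at median depths of 1566 and 1866.5 UMIs and with 27 and 12 shallower cells left out. Their Slc7a11 level was also higher in BLM, at 13.4 against 4.09 CPM (1.71, 0.21 to 3.39). That ratio rested on 13 and 6 UMIs, under the 20 needed to be ranked. The naive alveolar level was 1.82 (0.64 to 3.31) above that of B cells on the log2 scale, whereas for naive C1q macrophages the interval, -0.59 to 3.05, included 0. Below the neutrophils, BLM C1q macrophages, alveolar macrophages and classical monocytes had overlapping intervals.

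**Figure D2:**
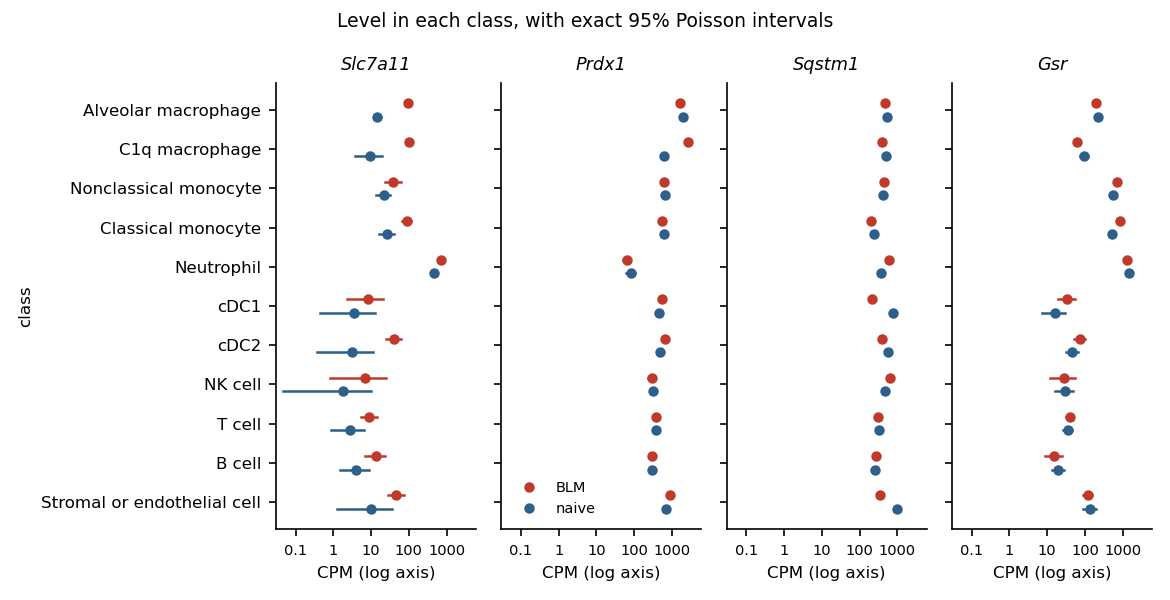
CPM on a log axis of Slc7a11, Prdx1, Sqstm1 and Gsr in the 11 classes, with red points for the BLM and blue for the naive library and lines for exact 95% Poisson intervals (counting error only). The red point lies to the right of the blue in every class for Slc7a11, with under 20 UMIs in B cells, cDC1 and NK cells. For Prdx1 the gap past 2-fold is that of C1q macrophages. For Sqstm1 the gaps past 2-fold are those of cDC1 and stromal or endothelial cells, with the red point to the left.

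Gclc and Gclm encode the catalytic and modifier subunits of glutamate-cysteine ligase, the rate-limiting step of glutathione synthesis. Among the 11 classes, Gclc was highest in T cells, at 112 CPM in BLM and 114 CPM in naive, followed by B cells at 78.1 and 63.4 CPM. It passed 2-fold in none of the 11 classes. In alveolar macrophages it was 30.2 against 38.9 CPM (-0.37, -0.65 to -0.09) and in C1q macrophages 56.1 against 28.3 CPM (0.99, 0.35 to 1.71), a value just under 2-fold that rested on 21 naive UMIs. Without integration it was -0.12 in the Mmp12, Spp1 and Arg1 cluster and 0.92 in the Ccl8, Ccl12 and Cd163 cluster. Among the same classes, Gclm had its highest BLM levels in C1q and alveolar macrophages, 130 and 125 CPM with overlapping intervals. Its log2 ratio was 0.57 (0.19 to 0.96) in C1q macrophages, 0.12 (-0.02 to 0.27) in alveolar macrophages and -0.47 (-0.82 to -0.13) in T cells. In the naive library stromal or endothelial cells ranked first of the 11 for Gclm (116 CPM), with an interval that overlapped that of alveolar macrophages (115 CPM). Of the 11, T cells led for Gclc in both libraries.

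Gsr encodes glutathione reductase, which returns oxidised glutathione to its reduced form with NADPH. It was highest in neutrophils, at 1288 CPM in the BLM and 1461 CPM in the naive library (-0.18, -0.29 to -0.07), and low in lymphocytes, with 15.4 and 19.8 CPM in B cells. Classical monocytes held 847 against 530 CPM (0.68, 0.48 to 0.87) and nonclassical monocytes 716 against 550 CPM (0.38, 0.19 to 0.57). Alveolar macrophages held 202 against 225 CPM (-0.16). In C1q macrophages it was 60.4 against 94.3 CPM (-0.64, -1.02 to -0.24), but the sign turned to 1.69 with marker-gated cells. It also turned, to 0.88, in the Mmp12, Spp1 and Arg1 cluster without integration, where BLM alveolar and C1q cells lay together. In the Ccl8, Ccl12 and Cd163 cluster it was -0.31 (-1.22 to 0.65), and no direction is given for the class. In cDC1, 16 against 9 UMIs gave a log2 ratio of 1.05, past 2-fold, with an interval of -0.22 to 2.41 that included 0, and the ratio was 0.91 without integration and 0.48 with marker-gated cells.

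Txnrd1 encodes the cytosolic thioredoxin reductase, which keeps thioredoxin reduced with electrons from NADPH. Neutrophils had its highest CPM, 473 CPM in BLM and 328 CPM in naive (0.53, 0.31 to 0.75), followed by cDC2 at 215 and 247 CPM. Among the 11 classes it passed 2-fold in classical monocytes alone, where 166 against 61.5 CPM gave a log2 ratio of 1.43 (0.92 to 1.96), from 93 and 50 UMIs. Nonclassical monocytes were just under, at 147 against 75.6 CPM (0.96, 0.49 to 1.43). In alveolar macrophages the ratio was 0.22 (0.09 to 0.36) and in C1q macrophages 0.23 (-0.05 to 0.53). Within neutrophils the cluster led by Retnlg and S100a9 held 396 against 198 CPM (log2 interval 0.64 to 1.38), just past 2-fold. The cluster led by Acod1 and Il1f9 held 551 against 510 CPM (0.11, -0.16 to 0.39).

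Srxn1 encodes sulfiredoxin, which repairs peroxiredoxins that have been over-oxidised. In C1q macrophages it stood at 148 CPM (137 to 160) in the BLM and 62.0 CPM (45.4 to 82.6) in the naive library, a log2 ratio of 1.26 (0.83 to 1.72), which was 0.67 with cells gated on markers and 0.25 in the Ccl8, Ccl12 and Cd163 cluster. Classical monocytes held 85.6 against 35.7 CPM, also 1.26 (0.57 to 1.98), and alveolar macrophages 85.4 against 59.8 CPM (0.51, 0.32 to 0.71). Neutrophils held 81.3 against 58.4 CPM (0.48, -0.05 to 1.03). Their cluster led by Acod1 and Il1f9 held 98.9 against 46.7 CPM (1.08, 0.24 to 2.03), past 2-fold. Their cluster led by Retnlg and S100a9 held 63.8 against 66.8 CPM (-0.06, -0.78 to 0.68). The T cell pair rested on 16 and 6 UMIs, 7.62 and 3.28 CPM, with an interval that included 0. B cells held 7.19 and 4.09 CPM, with intervals that overlapped those of T cells in both libraries.

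Prdx1 encodes peroxiredoxin 1, an abundant cytosolic peroxidase. In C1q macrophages it was 2636 CPM (2590 to 2683) in the BLM against 634 CPM (578 to 694) in the naive library, 4.16-fold, a log2 ratio of 2.05 (1.92 to 2.19). A single BLM cell carried 5.28% of those 12393 UMIs, and the share of cells with a Prdx1 UMI was 60.1% against 44.4% after thinning, which left out 9 BLM cells and 0 naive cells, and 96.6% against 90.8% before. In the Ccl8, Ccl12 and Cd163 cluster the ratio was 0.71, under 2-fold. C1q macrophages carried 41.8% of all Prdx1 UMIs of the BLM library and 2.62% of those of the naive library, and alveolar macrophages 36.4% and 67.5%. In alveolar macrophages, all of which had a Prdx1 UMI, the level was lower in BLM, 1680 against 1991 CPM (-0.25, -0.28 to -0.21), and centred on the median of all ranked genes of the class, -0.20, the difference was -0.04. In the other 9 of the 11 classes no Prdx1 difference passed 2-fold, with 63.4 and 82.0 CPM in neutrophils, its lowest class, and 295 and 303 CPM in B cells.

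Nqo1 encodes an NADPH quinone oxidoreductase that is often used as a readout of NRF2 in other tissues. It had few UMIs here, with 72 in all kept BLM cells and 10 in all kept naive cells, 3.40 and 0.59 CPM. Alveolar macrophages held 26 and 4 of these, 4.05 and 0.66 CPM (2.62, 1.09 to 4.60), and C1q macrophages 16 and 0. In naive C1q macrophages the limit at 3 counts was 4.04 CPM, above the BLM C1q level of 3.40 CPM. The interval of that ratio began at -0.72, so no direction is given for C1q macrophages. Stromal or endothelial cells had the highest CPM in both libraries, 17.1 (6.88 to 35.2) and 5.03, from 7 and 1 UMIs, and nonclassical monocytes followed, with 3 and 2 UMIs, all with intervals that overlapped the next class. The most UMIs in 1 alveolar macrophage made up 7.69% of the BLM count. In B cells, NK cells, classical monocytes, cDC1 and cDC2 there was no Nqo1 UMI in either library. For the 555 BLM B cells a count of 0 allows a level of up to 3.08 CPM at 3 counts, close to the BLM alveolar level. In the unnamed cluster led by the cell cycle genes Birc5, Pclaf and Ube2c (101 BLM and 71 naive cells), Nqo1 was at 14 and 1 UMIs.

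Alveolar macrophages split at a higher resolution into clusters led by Fabp1, Ear2 and Kazald1 (254 BLM and 296 naive cells) and by Marco, Ctsk and Slc39a2 (211 and 286 cells). The members differed between them. Leading genes were taken over both libraries together, and the BLM alveolar class held only 24 Fabp1 UMIs, against 2363 in the naive cells. Integration paired the cells of each cluster, and without it the Fabp1-led cluster held 0 BLM cells. In the Fabp1 cluster Prdx1 was 1144 against 1816 CPM (-0.67, -0.73 to -0.60) and Sqstm1 340 against 488 CPM (-0.52, -0.64 to -0.40). In the Marco cluster Prdx1 was 2136 against 2125 CPM (0.01, -0.04 to 0.05) and Sqstm1 619 against 556 CPM (0.16, 0.06 to 0.25). Srxn1 did not differ measurably in the Fabp1 cluster, at 55.3 against 55.5 CPM (-0.34 to 0.33 on the log2 scale), and was 112 against 62.2 CPM in the Marco cluster (0.85, 0.60 to 1.10). Slc7a11 was higher in BLM in both, at 88.4 against 3.35 CPM, where the naive level rested on 9 UMIs, and at 99.5 against 23.5 CPM. In the naive library the Marco cluster held more Slc7a11 than the Fabp1 cluster by 2.81 (1.81 to 3.99) on the log2 scale, whereas in the BLM library they were within 0.17 (-0.07 to 0.41).

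C1q macrophages of the libraries also differed in genes outside the 10, among them Spp1 (5218 against 13.5 CPM), Arg1 (844 against 5.39 CPM) and Gpnmb (1076 against 32.3 CPM), all higher in BLM, and Cx3cr1 (219 against 454 CPM). The Ccl8, Ccl12 and Cd163 cluster found without integration held comparable numbers of both, 86 BLM and 67 naive cells. There Prdx1 was 1002 against 612 CPM (0.71, 0.49 to 0.93), Srxn1 95.6 against 80.3 CPM (0.25, -0.39 to 0.93) and Sqstm1 604 against 637 CPM (-0.08, -0.31 to 0.16), and Slc7a11 had 16 against 1 UMIs. Within the BLM library the Mmp12, Spp1 and Arg1 cluster, with 488 alveolar and 384 C1q cells among its 927, exceeded the Ccl8 cluster in Prdx1 (2152 against 1002 CPM) by 1.10, in Slc7a11 by 2.25 (1.55 to 3.07) and in Gsr by 1.98 (1.46 to 2.57) on the log2 scale, and was below it in Nfe2l2 by -0.64 (-0.82 to -0.46) and in Sqstm1 by -0.47 (-0.61 to -0.33). The unnamed cluster led by Birc5, Pclaf and Ube2c had 56.2 against 4.58 CPM of Slc7a11 (3.62, 2.21 to 5.52) and 1820 against 1495 CPM of Prdx1 (0.28).

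**Figure D3:**
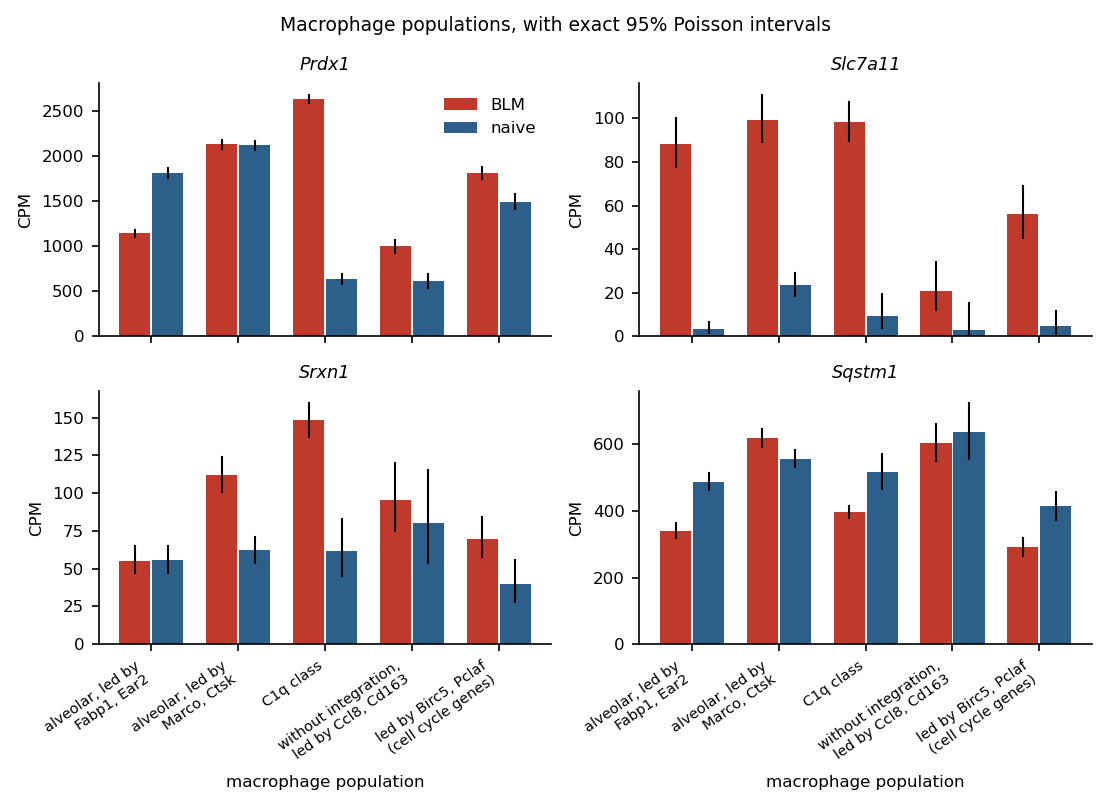
CPM (bars from 0) of Prdx1, Slc7a11, Srxn1 and Sqstm1 in 5 macrophage populations, BLM in red and naive in blue, with exact 95% Poisson intervals for counting error. Slc7a11 is higher in BLM in each population, Prdx1 is higher in BLM C1q macrophages (2636 against 634 CPM) and lower in the BLM cells of the alveolar cluster led by Fabp1 (1144 against 1816 CPM), and Srxn1 differs little in the Fabp1 and Ccl8 clusters. Leading genes are those of both libraries together, and BLM alveolar macrophages held little Fabp1.

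Migratory dendritic cells were too few for the comparisons above, with 69 BLM and 15 naive cells. Their Gclc was 182 against 919 CPM, but 1 naive cell carried 83.3% of the 90 naive UMIs. Sqstm1 was 524 against 1439 CPM (-1.46, -1.77 to -1.14) and Nfe2l2 179 against 602 CPM (-1.75, -2.25 to -1.24), also past 2-fold, with 35.5% and 23.7% of the naive UMIs in 1 cell. Their Slc7a11 was 159 and 102 CPM, a log2 ratio of 0.64 (-0.32 to 1.76). In T cells with a Foxp3 UMI, 76 in BLM and 22 in naive, 3 members had the UMIs to be ranked and 0 passed 2-fold, with Sqstm1 at 356 and 368 CPM and Prdx1 at 416 and 412 CPM.

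Summed over the 10 members, the level was 4021 against 2050 CPM in C1q macrophages, a log2 ratio of 0.97 (0.90 to 1.05). Prdx1 made up 12393 of the 18908 BLM UMIs and 471 of the 1522 naive UMIs of that sum. The higher C1q sum in BLM thus rested on Prdx1. In alveolar macrophages Prdx1 made up 10795 of 19607 BLM and 12116 of 20002 naive UMIs. In the Ccl8, Ccl12 and Cd163 cluster without integration the sum was 2405 against 2187 CPM (0.14, 0.017 to 0.26). The sum was 3051 against 3287 CPM in alveolar macrophages (-0.11, -0.14 to -0.08), 4315 against 3871 CPM in neutrophils (0.16, 0.09 to 0.22) and 2441 against 2024 CPM in classical monocytes (0.27, 0.17 to 0.37). The median log2 ratio of the ranked members was 0.57 in C1q macrophages, 0.10 in alveolar macrophages, 0.48 in neutrophils and 0.68 in classical monocytes, beside -0.08, -0.20, -0.11 and -0.05 over all ranked genes of those classes. Thinned to 1000 UMIs, a BLM alveolar macrophage held on average 1.82 of the 10 members and a naive one 1.91, a BLM C1q macrophage 1.68 and a naive one 1.53, and a BLM neutrophil 2.66 and a naive one 2.37. B cells held 0.72 and 0.75.

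The neighbouring genes of the pathway were followed as 8 lists. For every list count below, the background in alveolar macrophages was 6.1% of all ranked genes 2-fold higher and 9.96% lower. In C1q macrophages it was 7.25% and 10.7%. The lists are short, and their counts are given as a description. Among 11 NRF2 regulators, 0 were 2-fold higher and 1 lower in BLM alveolar macrophages, and 0 and 3 in C1q macrophages. Keap1, which marks NRF2 for degradation, was 40.1 against 46.3 CPM and 37.2 against 33.7 CPM in these classes. The small MAF partners Mafg and Mafk had the highest ratios of the list in alveolar macrophages, 0.72 and 0.82, and Btrc (-1.25), a substrate adaptor of an NRF2 ubiquitin ligase, and Bach2 (-0.84) the lowest. The list's median was -0.06 in alveolar and -0.34 in C1q macrophages, beside -0.20 and -0.08 for all ranked genes, and its sum 0.05 and -0.46. In C1q macrophages Rbx1 (0.23) and Nfe2l1 (0.15) were at the top, with Bach2 (-1.83), a repressor that competes for AREs, and Btrc (-1.22) at the bottom.

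Of 16 other NRF2 targets, 2 were 2-fold higher and 1 lower among 15 ranked in alveolar macrophages, and 4 higher and 0 lower among 14 ranked in C1q macrophages. The higher ones in alveolar macrophages were Ephx1, a microsomal epoxide hydrolase (19.1 against 7.23 CPM, 1.40), and Cbr3, a carbonyl reductase (1.12), and the lower was Cd36, a fatty acid and lipoprotein receptor (62.7 against 599 CPM, -3.26). Pir was at -0.82 from 12 and 20 UMIs. In C1q macrophages the ferritin heavy chain Fth1 was 19335 against 8690 CPM (1.15, 1.12 to 1.19) and Cbr3 32.1 against 14.8 CPM (1.12), while Ephx1 (-0.93) and Cd36 (-0.56) were lowest. Ephx1 thus stood on opposite sides in the macrophage classes. The list's median log2 ratio was 0.41 in alveolar and 0.39 in C1q macrophages, beside -0.20 and -0.08 for all ranked genes.

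Of the glutathione enzymes, 2 of 15 ranked were higher and 1 lower in alveolar macrophages, and 4 of 13 higher and 0 lower in C1q macrophages. Gpx3, a secreted glutathione peroxidase, was 23.5 against 2.14 CPM (3.46) and Glrx, glutaredoxin, 254 against 124 CPM (1.04) in alveolar macrophages, where the transferases Gstm1 (-1.53) and Mgst3 (-0.51) were lowest. In C1q macrophages Mgst1 was 281 against 72.7 CPM (1.95) and Gpx3 42.1 against 14.8 CPM (1.51), with Ggt5 (-0.77) and Gstm1 (-0.13) at the bottom. Their median was 0.02 with a sum of -0.05 in alveolar macrophages, and 0.52 with a sum of 0.34 in C1q macrophages. Of the thioredoxin and peroxidase enzymes, 2 of 16 were higher and 1 lower in alveolar macrophages, and 3 of 16 higher and 0 lower in C1q macrophages. Thioredoxin, Txn1, was 1478 against 599 CPM (1.30, 1.16 to 1.44) in C1q macrophages, next to Prdx5 at 609 against 259 CPM (1.24), while Sod3 (-0.95) and Txnrd3 (-0.83) had few UMIs. In alveolar macrophages Sod3 (2.51, from 18 and 3 UMIs) and Prdx4 (1.15) were highest, and Txnip, a binding inhibitor of thioredoxin, was 88.1 against 295 CPM (-1.74), with Txnrd2 at -0.57. The median of this list was 0.23 in alveolar and 0.16 in C1q macrophages.

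Among the 10 NADPH-supplying enzymes, 1 was higher and 0 lower in alveolar macrophages, and 2 of 9 ranked were higher and 1 lower in C1q macrophages. Pgd, an enzyme of the pentose phosphate pathway, was 407 against 151 CPM (1.43) and Nampt, of NAD salvage, 194 against 80.8 CPM (1.26) in C1q macrophages, with Me2 (-1.01) and Idh2 (-0.09) lowest. In alveolar macrophages the extremes were Me1 (1.14, from 14 and 6 UMIs), Nampt (0.72), Pgls (-0.44) and Me2 (-0.94). Of the NADPH oxidase genes and Nos2, 7 were ranked and 0 passed 2-fold in either class. Cybb, its catalytic subunit, was lowest in alveolar macrophages (2080 against 2453 CPM, -0.24), followed by Rac1 (-0.11), and Rac2 (0.67) and Ncf1 (0.53) were highest. In C1q macrophages Cyba (0.67) and Ncf1 (0.62) were highest and Rac2 (-0.19) and Ncf4 (-0.18) lowest.

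The ATF4 and stress targets were followed because Slc7a11 also belongs to that programme. In alveolar macrophages 1 of 13 ranked was higher and 3 lower, beside 6.1% and 9.96% of all ranked genes, and in C1q macrophages 1 of 10 was higher and 1 lower, beside 7.25% and 10.7%. In alveolar macrophages Ddit4 was 9.49 against 2.14 CPM (2.15) and Ddit3 15.6 against 12.5 CPM (0.32), whereas Phgdh, of serine synthesis, was 14.8 against 78.9 CPM (-2.42) and Asns, asparagine synthetase, -1.36 from 7 and 17 UMIs. In C1q macrophages Sesn2 (2.17, from 57 and 2 UMIs) and Ddit4 (0.74) were highest, and Atf3 (141 against 343 CPM, -1.28) and Atf4 itself (168 against 279 CPM, -0.73) lowest. Atf4 was 132 against 184 CPM in alveolar macrophages (-0.48), though its activity is set mainly by translation. The list's median was -0.51 with a sum of -0.10 in alveolar macrophages, and 0.07 with a sum of -0.18 in C1q macrophages. Of the autophagy receptors and partners of Sqstm1, 0 of 12 passed 2-fold in alveolar macrophages and 1 was higher in C1q macrophages, Gabarapl1 (162 against 74.1 CPM, 1.13), followed by Map1lc3b (0.57), with Wdfy3 (-0.96) and Calcoco1 (-0.80) lowest. In alveolar macrophages Optn (0.41) and Gabarapl1 (0.27) were highest and Map1lc3a (-0.70) and Calcoco1 (-0.76) lowest.

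Over 13 named classes in both libraries, 26 points that share libraries and depth, the members followed several patterns rather than 1. On log2(CPM + 10), Txnrd1 went with Slc7a11 (Pearson r = 0.77) and Nfe2l2 (r = 0.76), and Gsr with Nfe2l2 and Slc7a11 (r = 0.68 for both), genes that neutrophils held at their highest levels. Gclm went with Prdx1 (r = 0.65) and ran against Gsr (r = -0.47), and Prdx1 had little relation to Slc7a11 (r = -0.22). Among 7495 genes with 500 or more UMIs, those most like the members' sum were Gng5 (r = 0.91), Gabarap (0.90), Tnfaip2 (0.90), Snx10 (0.88) and the ferritin light chain Ftl1 (0.88), the last a listed NRF2 target. The correlations are given as a description.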

How the data were processed

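Single-cell RNA-seq of sorted lung CD45+ cells was analysed in 2 libraries, 1 per group. The deposited counts are whole UMI counts per cell and gene; per the file headers the authors made them with the BD Rhapsody pipeline version 1.8 on GRCm38 with GENCODE vM19, with no normalisation. The authors then filtered cells in SeqGeq and integrated the libraries in Seurat. Here, cells with at least 200 genes and at most 15% mitochondrial UMIs were kept, and the 3% of each library with the highest Scrublet scores (scanpy 1.11.5) were left out as likely doublets, 135 BLM and 117 naive cells, because the automatic threshold marked 0.177% and 1.55%. Libraries were integrated in Seurat 5.3.0 (R 4.3.3; 2000 variable genes without the 10 members, 30 dimensions, resolution 0.5), so cluster names were rebuilt and may differ from the study's. Clusters were named from fixed markers, by their mean score or by the number of markers among the 10 leading genes.

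UMIs were summed by class and library. Genes with 20 or more UMIs over both libraries were ranked, and 2-fold differences of CPM were counted. A level of 0 was given the limit of 3 counts. Intervals were tested on simulated data. No test was made, since each group had 1 library. Named genes were all members, the 2 highest and 2 lowest ratios of each list in each macrophage class, and the 5 genes most like the members' sum. The members and lists were chosen with earlier results of these data known. No other per-sample column was present (0). Gene positions are from GENCODE vM21, also GRCm38. Comparing levels between genes was avoided, because capture differs by transcript. Alternatives covered resolution, cell filters, doublets, integration, gating, weighting, thinning and UMI minimum.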

Additional observations from a re-analysis of the deposited data

Results flagged for a closer look

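In 4 members, 2 classes lay on opposite sides of the median log2 ratio of all ranked genes of their class, each with an interval that excluded that median, and were at least 1 apart on the log2 scale after centring on it. The pair given for each member is the widest among classes that met this, and classes with wider intervals could lie further out (Gsr in cDC1 at 1.05, for example). The difference between the classes was not tested in any of them, since each class had 1 library per group. Gclm had 0.57 in C1q macrophages and -0.47 in T cells. Prdx1 had 2.05 in C1q macrophages and -0.25 in alveolar macrophages. The alveolar value was -0.04 after centring and 0.01 in the Marco-led cluster, so that side lay close to its median. The C1q value was 0.71 in the Ccl8 cluster. Sqstm1 had 0.71 in neutrophils and -1.83 in cDC1. Gsr had 0.68 in classical monocytes and -0.64 in C1q macrophages, the latter with a sign that turned without integration (0.88) and with marker-gated cells (1.69).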

How the results depend on the processing

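No paired analysis was possible because each group had 1 library. Of the 15 gene and class pairs past 2-fold, 180 of 182 alternative values kept the sign and 171 stayed past 2-fold. The 2 that turned were Slc7a11 in stromal or endothelial cells, at -1.18 with 500 or more genes a cell and -3.17 with cells gated on markers. Past 2-fold was lost by Gsr in cDC1 (0.48 and 0.91), Prdx1 and Srxn1 in the Ccl8 cluster chosen after seeing the data (0.71 and 0.25), Srxn1 with gated C1q macrophages (0.67), Sqstm1 in stromal or endothelial cells (-0.90 with equal weights and -0.37 gated), and Slc7a11 in C1q macrophages without integration (0.56). Nqo1 in the Fabp1-led alveolar cluster had 6 against 0 UMIs. With the naive count set to 3 this gave 0.95, and the exact interval began at 0.18. Causes were not tested. The count of members 2-fold higher in alveolar macrophages was 1 rather than 2 with marker gating, thinning to 1000 UMIs or a minimum of 50 UMIs. The summed ratio in alveolar macrophages was -0.077 with doublets kept, 0.012 with marker gating, -0.15 with each cell weighing the same or thinned, and 0.10 centred on the median gene. In C1q macrophages it was 0.88 without integration in the Mmp12, Spp1 and Arg1 cluster. That cluster held 488 alveolar and 384 C1q cells among its 927 BLM cells, against 26 naive cells. The C1q summed ratio was 0.14 (0.017 to 0.26) in the Ccl8 cluster, with 0 members past 2-fold. It was 0.88 at resolution 1.0, 0.81 at 10% mitochondrial UMIs, 0.73 with doublets kept and 0.76 with gating. With equal weights it was 0.71, centred 1.06 and thinned 0.72. In neutrophils the summed ratio was 0.27 centred. Without integration the alveolar class held 0 BLM cells, so it gave no value. At 3 counts the limit of detection was 4.04 CPM in naive C1q macrophages and 15.1 CPM in naive stromal or endothelial cells.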
